A study of Mus musculus with 13 samples.

Results

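The collagen genes of mouse gastrocnemius muscle were compared between UCP1 transgenic mice and wild type mice. They were taken as every non-control probe whose gene name on the array was Col, a number, a and a number. That rule found 77 spots, which made up 68 of the 55681 probes of the array and stood for 43 genes. They are 43 of 34797 genes with a probe. A gene counted as measured where 6 or more of the 13 arrays had one of its probes well above background in the muscle channel, which held for 28 collagens and for 17257 genes in all. The measured collagens were 8 of 9 fibrillar genes (types I, II, III, V and XI), 7 of 8 basement membrane genes (types IV, XV and XVIII) and 13 of 26 others. The 15 genes that did not pass this filter are accounted for at the end.

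Each array held RNA from the gastrocnemius, a calf muscle, of 1 male mouse of strain C57BL/6J. The 6 wild type and 7 UCP1 transgenic mice were littermates, compared from the age of 12 weeks per the design text, and both groups received the same purified low fat diet for 12 weeks. UCP1 is the mitochondrial uncoupling protein of brown fat, and the labels place the transgene in skeletal muscle. The promoter that drives it is not given in the sources used here. Muscle RNA was labelled with Cy5 and set against a common Cy3 reference pool without a dye swap, so a value for one array is a log2 ratio of muscle to pool, and a difference is transgenic minus wild type on the log2 scale. The labels call the samples individual mice, so each array was 1 replicate.

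Collagens are triple-helical proteins of the extracellular matrix, each molecule being wound from 3 chains that may come from different genes. Fibrillar collagens form the load-bearing fibres of tendon and of the connective tissue sheaths of muscle, type IV collagen forms the network of the basement membrane around each muscle fibre, and the remaining types decorate fibrils, form microfibrils or anchor membranes. In muscle most collagen RNA is made by fibroblasts and tendon cells, with a part of the type IV chains from vessels and fibres. In whole muscle, fewer cells of a type and less RNA per cell cannot be told apart.

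The upstream sequences of 3 collagen genes are shown because their measured differences went apart: Col1a2 was higher in the transgenic mice, Col3a1 passed the test in neither direction, and Col7a1 was lower. They are the 120 bases before the RefSeq start, read 5′ to 3′ on the plus strand of GRCm38.p6, at chr6:4505498-4505617, chr1:45311418-45311537 and chr9:108953466-108953585. Capitals mark a match on either strand to CCAAT or TATAAA, which were among the motifs searched.

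Col1a2: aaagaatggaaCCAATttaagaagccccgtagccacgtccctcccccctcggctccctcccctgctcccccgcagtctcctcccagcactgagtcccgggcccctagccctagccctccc
Col3a1: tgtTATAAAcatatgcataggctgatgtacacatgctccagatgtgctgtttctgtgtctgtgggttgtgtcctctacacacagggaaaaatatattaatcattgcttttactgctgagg
Col7a1: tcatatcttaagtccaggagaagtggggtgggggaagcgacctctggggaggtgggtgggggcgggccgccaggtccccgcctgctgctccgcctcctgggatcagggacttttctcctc

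In Col1a2 the CCAAT began 109 bases before the start, and in Col3a1 the TATAAA began 117 bases before it. One more motif, TGATGNAAT, was searched on both strands too, and it shares no match position with the others in these promoters. Over 32851 mouse promoters of the same length, 21.3% held CCAAT, 6.34% held TATAAA and 0.454% held TGATGNAAT. Of the 28 measured collagen genes, 22 had an entry in the RefSeq table, with 24 promoters between them. CCAAT was found in 3 of these promoters (Col1a2, Col16a1 and Col4a2), TATAAA in 1 (Col3a1) and TGATGNAAT in 0. A match is a description of the letters in this window and not a binding site.

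The level of Ucp1 itself was read first as a check of the labels. It lay between -0.20 and 0.85 on the 7 transgenic arrays and between -4.23 and -2.82 on 5 wild type arrays, but the array labelled wild type 4 read 0.45, within the transgenic range. The fitted difference was 3.23 ± 0.50 (SE) with a limma adjusted p of 5.53e-05. The array labelled wild type 4 was kept in its labelled group. Values without it are given for the called collagens other than Col2a1 and for the 2 pairs of collagen chains that passed adjustment. The Ucp1 difference, the class medians, the gene lists and the cell markers are given only with it. Slides 1 to 4 held 1, 2, 1 and 2 wild type arrays and 2, 1, 2 and 2 transgenic arrays. The only wild type array of slide 3 was the one labelled wild type 4, so every difference within slide 3 rests on it. Across the arrays 37.1% to 43.2% of probes were well above background. All 12 muscle fibre markers were measured, so the tissue matched its label, and 0 of 12 cartilage and bone markers passed the filter: Acan was well above background on 2 arrays, 1 probe of Bglap on 1 array, and the others on 0, with no probe for Bglap1.

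The type I collagen chains rose in the muscle of the transgenic mice, and Col7a1, which encodes the anchoring fibril collagen known from skin, fell. In all, 7 of the 28 measured collagen genes rose, 1 fell and 20 did not pass the limma test at an adjusted p of 0.05 over all 17257 genes. Of all measured genes 33.0% passed it, 16.9% upward and 16.1% downward, so the collagens' 28.6% was near the background. Col2a1 entered only through the transgenic arrays, where its probe was above background. Without it 6 of 27 collagens rose and 1 fell (25.9%). The genes that rose were Col1a1, Col1a2 and Col2a1 among the fibrillar collagens, Col4a5 among the basement membrane collagens, and Col12a1, Col16a1 and Col20a1 among the others. Except for Col16a1 and Col20a1, these genes and Col7a1 were each read by 1 probe that passed the filter, as were 22 of the 28 measured collagens. On the probe that stood for each gene, the groups did not overlap for 2 collagens, Col7a1 and Col20a1, against 14.7% of all genes.

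**Figure D1:**
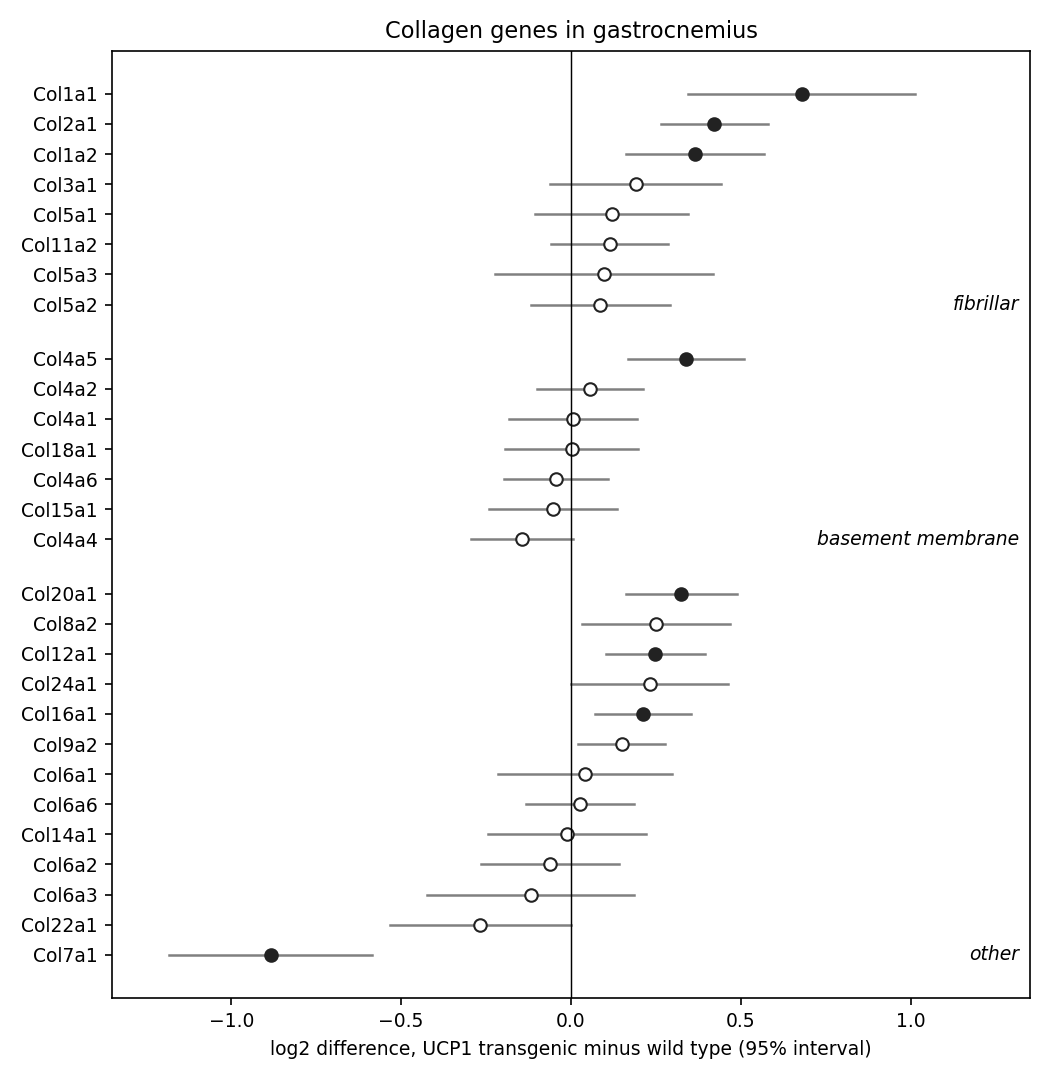
Difference of each of the 28 measured collagen genes between UCP1 transgenic and wild type gastrocnemius, in log2 units, with its 95% interval from the limma fit; filled points passed an adjusted p of 0.05. The points run from -0.88 for Col7a1 to 0.68 for Col1a1, and the 8 fibrillar genes all lie above 0.

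All 8 measured fibrillar genes had a positive difference, from 0.09 to 0.68 with a median of 0.15. Of them 3 passed the test, beside 16.9% of all genes upward. Without Col2a1 it was 2 of 7, with a median of 0.12. The median over all genes was -0.00, and 8585 of 17257 genes had a positive difference. The fibrillar median of each array ran from -0.54 to -0.01 on wild type and from -0.25 to 0.25 on transgenic arrays, so the groups overlapped. The genes were read on the same arrays, so their 8 signs are not 8 separate results. Under the other scalings the fibrillar median lay between 0.12 in the authors' table and 0.35 with ratios centred on array medians, where the median of all genes itself moved to 0.14.

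Col1a1 encodes the alpha 1 chain of type I collagen, the main fibre-forming collagen of tendon and muscle sheaths, and its probe lies at chr11:94813115-94813174 (mm9). On the 6 wild type arrays its log2 ratio was -1.01 at the lowest, -0.82 at the median and 0.03 at the highest, and on the 7 transgenic arrays -0.43, 0.11 and 0.40. The groups overlapped: 5 of 7 transgenic arrays lay above every wild type array, and the overlap came from the high wild type arrays of slide 4 and the low transgenic arrays of slides 3 and 4. The difference was 0.68 ± 0.16 (SE), or 1.60-fold, with a 95% interval of 0.34 to 1.01 and an adjusted p of 0.00253. Within the 4 slides it was 0.85, 1.07, 0.88 and 0.12.

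Col1a2 encodes the alpha 2 chain of the same molecule (probe at chr6:4490619-4490678, mm9). Its log2 ratio was -0.63, -0.40 and -0.23 at the lowest, median and highest wild type array, and -0.35, 0.01 and 0.21 in the transgenic group. Again 5 of 7 transgenic arrays exceeded all wild type arrays while the other two fell inside the wild type range. The difference of 0.37 ± 0.10 (SE), 1.29-fold, had an adjusted p of 0.00627, and it was 0.47, 0.72, 0.46 and 0.04 within the slides. Both chains were thus closest between the groups on slide 4.

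Col2a1 encodes type II collagen, the main collagen of cartilage (probe at chr15:97806071-97806130, mm9). Its probe was well above background on 0 of 6 wild type and 6 of 7 transgenic arrays, so its change has only a lower bound. The log2 ratio ran from -0.32 through a median of -0.25 to -0.01 in wild type mice and from -0.03 through 0.19 to 0.45 in transgenic mice. Of the 7 transgenic arrays 6 lay above all wild type arrays, and the overlap was confined to the lowest transgenic and the highest wild type array. Against the lowest signal counted as above background, Col2a1 was 1.26-fold higher in the transgenic mice. This rough bound was not itself tested, and a probe not called above background can read above that signal. The limma test of the log2 ratios gave an adjusted p of 0.000221. Since the probe was kept only because of the group in which it was high, this p is no independent support. Such a bound, taken without a dye swap, is open to dye bias. The defining markers of cartilage were well above background on 0 to 2 of the 13 arrays.

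Col3a1 encodes type III collagen, a homotrimer that is laid down together with type I in the muscle sheaths (probe at chr1:45405589-45405648, mm9). Its log2 ratio was -0.70, -0.36 and 0.09 in the wild type group and -0.32, -0.16 and 0.19 in the transgenic group. The ranges overlapped broadly, the transgenic arrays filling the upper part of the wild type range. The difference of 0.19 had a 95% interval of -0.06 to 0.44 and an adjusted p of 0.246, so an increase of the size seen for Col1a2 lies inside the interval.

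Type V collagen sits inside type I fibrils and limits their diameter. Col5a1 read -0.62, -0.19 and 0.09 in wild type and -0.20, -0.16 and 0.25 in transgenic mice (lowest, median, highest). In the transgenic group 6 arrays clustered at the centre of the wild type range and only transgenic 7 lay above it. The difference was 0.12 (95% interval -0.11 to 0.34, adjusted p 0.429). Col5a2 and Col5a3 differed by 0.09 and 0.10, and Col11a2, a chain of the related type XI collagen, by 0.11, with adjusted p of 0.536, 0.671 and 0.315.

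**Figure D2:**
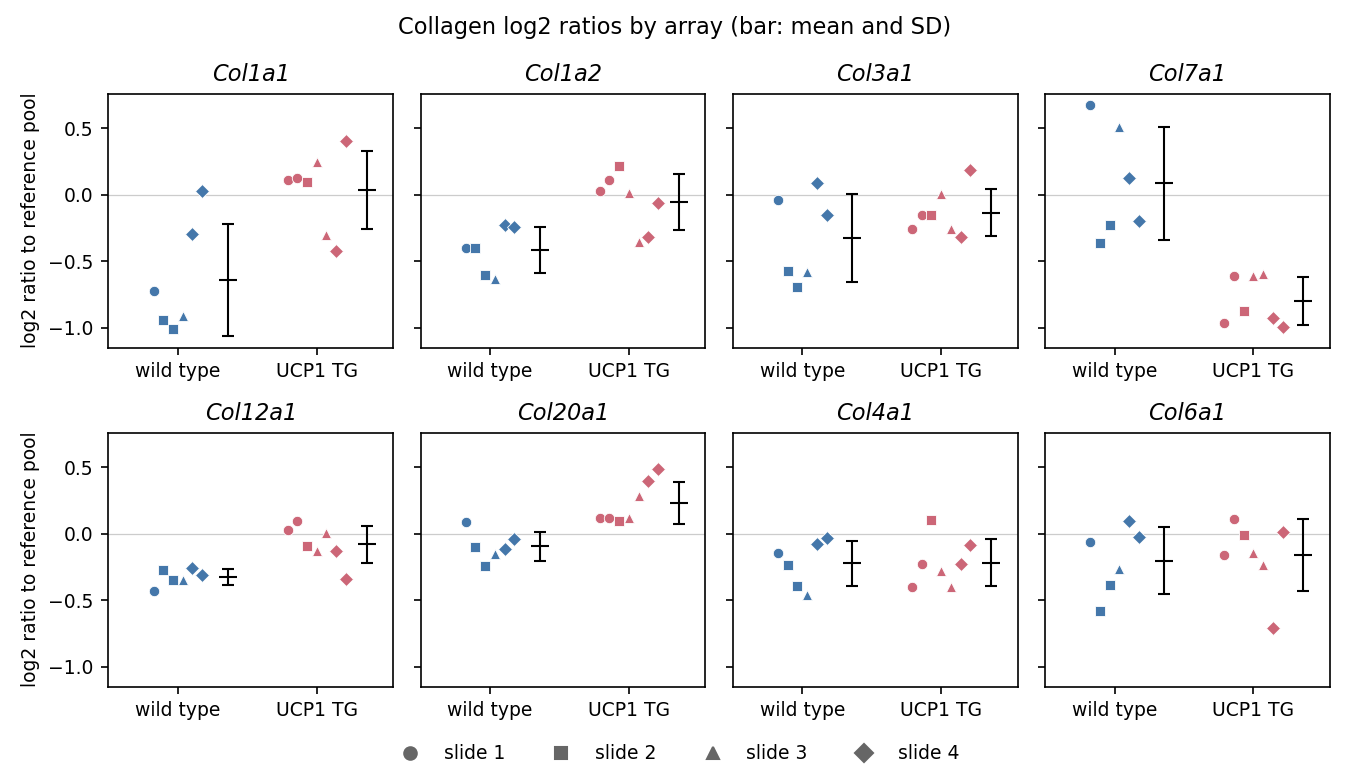
Log2 ratio to the reference pool on each array for 8 collagen genes, with wild type arrays in blue, UCP1 transgenic arrays in red, the slide as the point's shape, and group mean and SD (n = 6 and 7) as bars. Col7a1 and Col20a1 separate the groups, Col1a1 and Col1a2 overlap on slide 4 and through 1 transgenic array of slide 3, and Col4a1 and Col6a1 cover largely the same range in both groups.

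Among the basement membrane collagens 1 of 7 genes rose, beside 16.9% of all genes, and the median difference was 0.00. Col4a5 encodes a type IV chain that pairs in basement membranes with Col4a6, its neighbour on chromosome X. Its probe (chrX:138123547-138123606, mm9) was well above background on 3 of 6 wild type and all 7 transgenic arrays. The wild type arrays alone would not have met the filter, so the test of Col4a5 is no fully independent support. The log2 ratio was -0.52, -0.26 and -0.06 in wild type and -0.08, 0.10 and 0.30 in transgenic mice, so all but 1 of the transgenic arrays lay above the wild type range. The difference was 0.34 ± 0.08 (SE) with an adjusted p of 0.00312. It did not pass with array medians in place of loess (0.35, adjusted p 0.0502) or in the authors' deposited values (0.24, adjusted p 0.138), and Agilent's own ratio gave 0.97.

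The major chains of the basement membrane, Col4a1 and Col4a2, did not pass the test. Col4a1 read -0.46, -0.19 and -0.04 in wild type and -0.40, -0.23 and 0.10 in transgenic mice (lowest, median, highest), a difference of 0.01 with a 95% interval of -0.18 to 0.19. Col4a2 read -0.51, -0.34 and -0.10 against -0.39, -0.33 and -0.11, a difference of 0.06 with an interval of -0.10 to 0.21. The 2 groups covered largely the same range for both chains, and an increase as large as that of Col1a1 lies outside both intervals. In the RefSeq table the starts of Col4a1 and Col4a2 lie 21 bases apart on opposite strands.

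Col15a1 and Col18a1 encode the collagens of the basement membrane zone whose end fragments include restin and endostatin. Col18a1 ran from -0.35 through -0.06 to 0.18 in the wild type group and from -0.32 through -0.07 to 0.18 in transgenic mice, nearly the same range, with a difference of 0.00 (95% interval -0.19 to 0.20). Col15a1 ran from -0.12 through -0.06 to 0.14 in the wild type group and from -0.26 through -0.12 to 0.39 in transgenic mice. Its transgenic range was the wider one, with transgenic 3 above and 4 arrays below the wild type range, and the difference was -0.05 (interval -0.24 to 0.14). Of the remaining type IV chains, Col4a6 differed by -0.04 and Col4a4, known from the kidney filter, by -0.14 (interval -0.30 to 0.01, adjusted p 0.138).

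After loess, the largest difference in size among the collagens was that of Col7a1, whose probe lies at chr9:108886861-108886920 (mm9). Its log2 ratio was -0.36, -0.04 and 0.67 at the lowest, median and highest wild type array, and -0.99, -0.88 and -0.60 in the transgenic group. All 7 transgenic arrays lay below all 6 wild type arrays, and the wild type arrays spread more widely (SD 0.43, n = 6) than the transgenic ones (SD 0.18, n = 7). Col7a1 fell by 0.88 ± 0.14 (SE), or 1.85-fold, with an adjusted p of 8.14e-05. It was lower within each of the 4 slides, with differences of -1.46, -0.58, -1.11 and -0.92. The value of -1.11 rests on the array labelled wild type 4. Under array medians without loess the difference was -0.66 and its adjusted p 0.0878.

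The fibril-associated collagens coat the surface of fibrils and tie them to other matrix proteins. Of 6 measured genes of this kind 3 rose, beside 16.9% of all genes, and Col9a2, Col14a1 and Col22a1 did not pass. With 6 genes this count is a description only. Col20a1 read -0.24, -0.11 and 0.09 in wild type and 0.09, 0.12 and 0.49 in transgenic mice, and the groups did not overlap, although the highest wild type array came close to the lowest transgenic one. Its difference was 0.33 ± 0.08 (SE), adjusted p 0.00296, and it was 0.03, 0.27, 0.35 and 0.52 within the slides. A second, dimmer probe of Col20a1 gave 0.30 (adjusted p 0.0222 over all probes). On that probe the groups overlapped, since transgenic 1 and 2 lay inside the wild type range.

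Col12a1, which is abundant in tendon and muscle sheaths, read -0.43, -0.33 and -0.26 in wild type and -0.34, -0.10 and 0.10 in transgenic mice. The wild type arrays lay close together, and 6 of 7 transgenic arrays were above them all. The difference was 0.25 ± 0.07 (SE) with an adjusted p of 0.00927. Under array medians it was 0.34 with an adjusted p of 0.0582.

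Col16a1 read -0.64, -0.40 and -0.27 in wild type and -0.30, -0.19 and -0.07 in transgenic mice, and 5 of 7 transgenic arrays exceeded the wild type group. Its difference was 0.21 ± 0.07 (SE) with an adjusted p of 0.0195. A second, dimmer probe gave 0.12 (adjusted p 0.173 over all probes). It rested on 1 array, since without wild type 2 the adjusted p was 0.0560 at a difference of 0.17. Under array medians the adjusted p was 0.120.

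Type VI collagen forms the beaded microfibrils next to the muscle fibre, and inherited loss of its chains causes muscular dystrophy. None of its 4 measured chains passed the test. Col6a1 read -0.58, -0.16 and 0.09 in wild type and -0.71, -0.15 and 0.11 in transgenic mice, and differed by 0.04 (95% interval -0.21 to 0.30). Transgenic 6 was the lowest array of all, and 3 wild type arrays (2, 3 and 4) lay below the other transgenic arrays.

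Col6a2 read -0.47, -0.29 and 0.21 against -0.40, -0.28 and -0.08, a difference of -0.06 (interval -0.27 to 0.14). Col6a3 read -0.64, -0.27 and 0.37 against -0.53, -0.32 and 0.17, a difference of -0.12 (interval -0.42 to 0.19). For both chains the transgenic arrays lay inside the wild type range. Under array medians the signs of Col6a2 and Col6a3 turned to 0.15 and 0.13, close to the shift of 0.14 of all genes there. Col6a6 differed by 0.03.

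Of the other collagens, Col8a2, a network collagen known from the cornea, differed by 0.25 (95% interval 0.03 to 0.47, adjusted p 0.0714), Col24a1 by 0.23 (adjusted p 0.117) and the cartilage chain Col9a2 by 0.15 (adjusted p 0.0674). Col24a1 and Col8a2 passed with the slide as a block, fixed or random. Col9a2 passed with the random block, with Agilent's own ratio, with either other background correction and with the mean over probes. For Col22a1 and Col14a1, as for Col16a1, the probes of a gene gave different results. Col22a1, a collagen of the junction between muscle and tendon, had a brighter probe with a difference of -0.27 (adjusted p 0.118) and another, at chr15:71699345-71699404 (mm9), with 0.35 (adjusted p 0.00220 over all probes), so no direction can be given for the gene. Col14a1 differed by -0.01 on its brighter probe and by 0.21 on its other one (adjusted p 0.0381 over all probes).

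Pairs of collagen chains were also set against each other within each array, which shows unequal change of a pair and not which chain changed. Some pairs can share a molecule. Others, such as Col1a1 with Col3a1, Col3a1 with Col5a2 and Col15a1 with Col18a1, belong to different collagens. Of 12 listed pairs 10 had both genes measured, and the exact two-sided permutation test over all 1716 groupings of the 13 arrays was adjusted over these 10. Col1a1 rose relative to Col3a1: the within-array difference of log2 ratios ran from -0.69 to 0.18 on wild type arrays and from -0.11 to 0.37 on transgenic arrays, 5 of 7 transgenic arrays lay above the wild type range, and the difference was 0.49 (exact p 0.00466, adjusted 0.0233). It was 1.01, 0.59, 0.43 and 0.16 within the slides. Without the array labelled wild type 4 it was 0.49 with an adjusted p of 0.0505, and with Agilent's own ratio and the Cy5 channel alone the adjusted p was 0.0796 and 0.0932.

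Col4a5 rose relative to Col4a6. Their within-array difference ran from -0.70 to -0.20 on wild type arrays and from -0.30 to 0.24 on transgenic arrays, so 5 of 7 transgenic arrays lay above the wild type range. The difference of 0.38 had an exact p of 0.00466 and an adjusted p of 0.0233. The filter was met for Col4a5 by its transgenic arrays and not by its wild type arrays alone, which limits this test too. Without the array labelled wild type 4 the adjusted p was 0.0505, and with the Cy5 channel alone it was 0.352. Col1a1 against Col1a2 gave 0.31, with an exact p of 0.0449 that did not pass adjustment (0.150). The 7 remaining pairs had adjusted p of 0.755 or more, and Col4a1 against Col4a2 differed by -0.05.

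**Figure D3:**
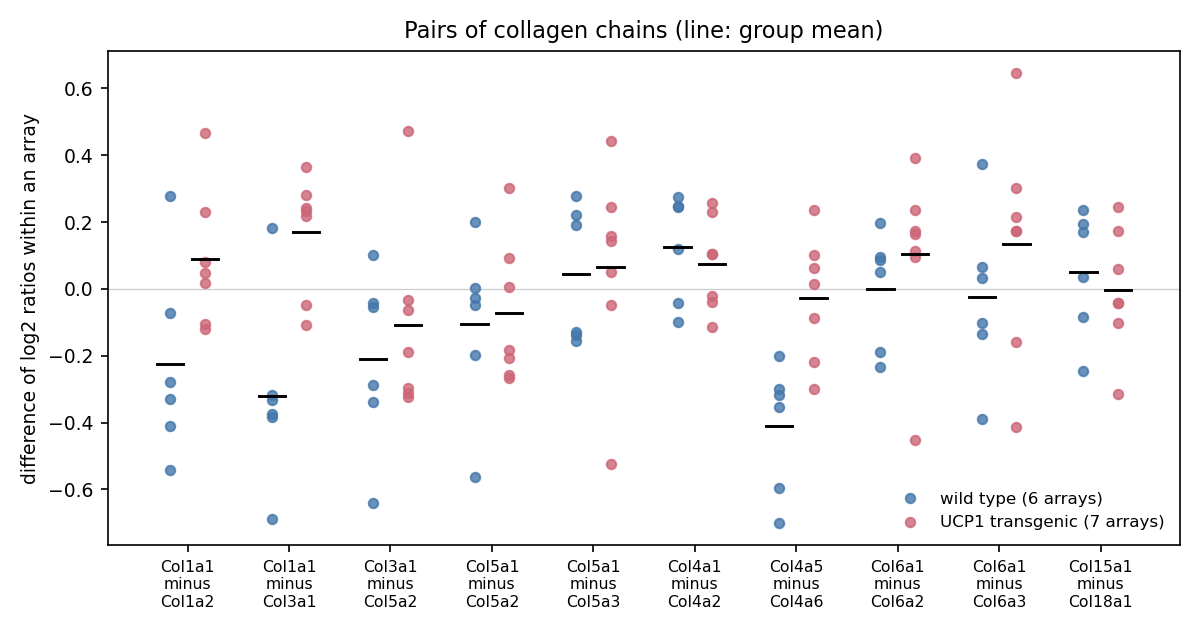
Difference of log2 ratios between 2 collagen chains within each array, for 10 pairs, with wild type arrays in blue, UCP1 transgenic arrays in red and the group mean as a line. The transgenic means lie above the wild type means by 0.49 for Col1a1 minus Col3a1 and by 0.38 for Col4a5 minus Col4a6, the 2 pairs that passed adjustment.

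The 8 calls did not rest on the array labelled wild type 4. Without it the same 8 genes passed, against 32.6% of all genes, with differences, leaving aside Col2a1, of 0.63 for Col1a1, 0.32 for Col1a2, 0.37 for Col4a5, 0.31 for Col20a1, 0.24 for Col12a1, 0.21 for Col16a1 and -0.80 for Col7a1. With a difference of at least 0.5 required as well, Col1a1 was left upward and Col7a1 downward, against 3.87% and 4.33% of all genes. With ratios centred on array medians 4 collagens passed upward (Col1a1, Col1a2, Col2a1 and Col20a1) and 0 downward, against 6.02% and 1.53% of all genes, and 79.7% of all called genes were higher there against 51.1% after loess. The differences of Col1a1, Col1a2 and Col20a1 under array medians were 0.96, 0.70 and 0.42, to be read against the shift of 0.14 of all genes.

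**Figure D4:**
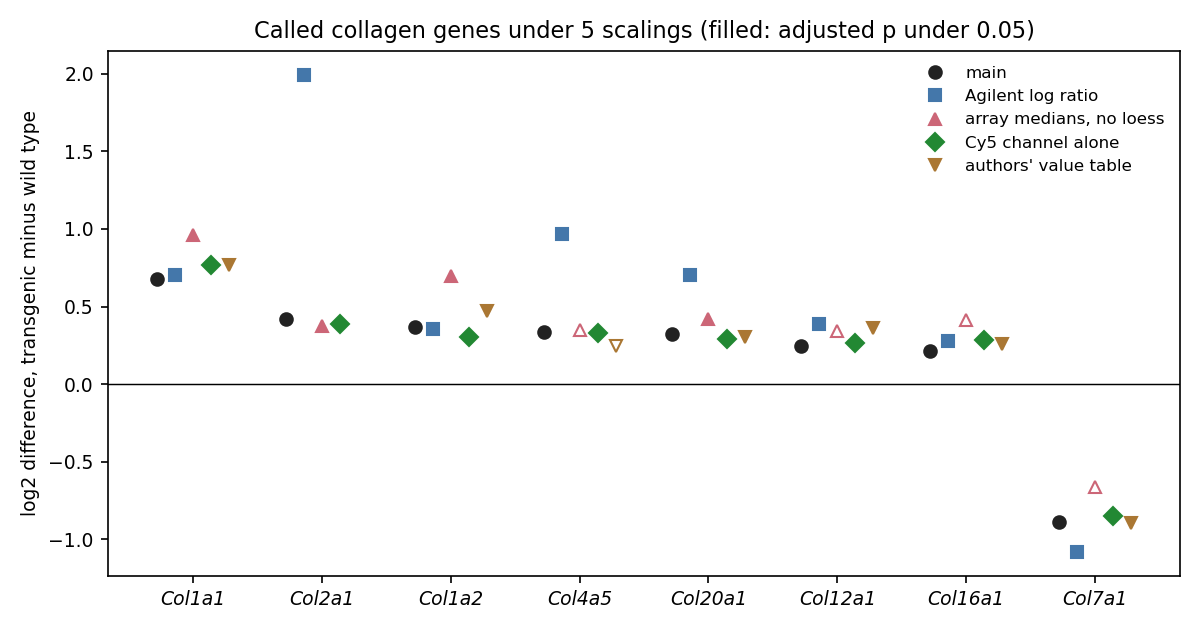
Difference between UCP1 transgenic and wild type mice, in log2 units, for the 8 called collagen genes under 5 scalings, filled where the adjusted p was under 0.05; Col2a1 has no point from the authors' value table, and its points are set against wild type arrays below background. Each gene keeps its sign under every scaling drawn, while Col4a5, Col12a1, Col16a1 and Col7a1 have open points with array medians, and Col4a5 also in the authors' table.

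Genes that make, process, bind or break down collagen were counted in 7 lists. Of 20 measured enzymes and helpers of collagen folding and secretion, 3 rose and 3 fell, or 1 in the upward and 0 in the downward direction under array medians. These counts, like those of the other lists below, are to be read against the 16.9% higher and 16.1% lower among all genes. P4hb, the beta subunit of prolyl 4-hydroxylase, rose by 0.64 ± 0.08 (SE), and the galactosyltransferases Glt25d1 and Glt25d2 by 0.24 and 0.23. P4ha2, a catalytic subunit of the same hydroxylase, fell by 0.59, the collagen export receptor Mia3 by 0.28 and the reticulum cation channel Tmem38b by 0.23. The catalytic subunits P4ha1 and P4ha3 differed by -0.23 and 0.02 and did not pass (adjusted p 0.0824 and 0.832). Of the list only P4hb passed under array medians.

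Of 10 genes for procollagen cleavage and cross-linking 1 rose, the lysyl oxidase family member Loxl1 (0.28), and 0 fell. Lox and Bmp1, which start cross-linking and cut the C-terminal propeptide, did not pass. Of 12 measured collagen-degrading proteases and their inhibitors 0 rose and 2 fell, both of them inhibitors: Timp2 by 0.60 and Timp3 by 0.57. Of 11 collagen receptors Cspg4 rose (0.29) and Cd44 fell by 0.23. Under array medians 0 genes of these 3 lists passed, and Timp2 and Timp3 both differed by -0.30 (adjusted p 0.373 and 0.468).

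Of 24 collagen-binding proteoglycans and fibril-associated proteins 4 rose and 2 fell. The elastic fibre protein Fbln5 rose by 0.63 ± 0.11 (SE), the small proteoglycans Kera and Ogn by 0.39 and 0.31, while Thbs4 and Sparcl1 each fell by 0.38. Of 18 basement membrane proteins other than collagen 1 rose, the laminin chain Lamb2 (0.36), and 0 fell. Of the genes of these 2 lists Fbln5 alone passed under array medians.

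Transforming growth factor beta signalling is a known inducer of fibrillar collagen genes. Of its 21 listed genes 1 rose and 8 fell, with a median difference of -0.07. The signal transducer Smad3 fell by 1.30 ± 0.09 (SE), with all transgenic arrays below all wild type arrays, and the co-repressor Skil fell by 0.38, while the latent binding protein Ltbp2 rose by 0.27. Under array medians Smad3 and Ltbp2 passed, in the same directions.

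Markers of the cells that could supply collagen RNA did not move as 1 group. Of 10 measured fibroblast markers 0 rose and 1 fell, with a median difference of -0.06, and their summed Cy5 signal was 6218 to 7975 on wild type arrays and 6570 to 7768 on transgenic arrays. Of 9 tendon markers 3 rose (Egr1, Kera and Tnmd) and 3 fell (Scx, Thbs4 and Chodl), with sums of 6200 to 9899 on wild type and 6552 to 8425 on transgenic arrays. Egr1 is also induced in many cells by stimulation, and rose by 2.28.

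Of 11 white adipocyte markers 7 rose and 1 fell, the latter being Car3, which muscle fibres also express. Their summed Cy5 signal was 57076 to 75073 on wild type and 56450 to 69616 on transgenic arrays. Of 8 Schwann cell markers 5 rose and 0 fell, with sums of 1858 to 2811 on wild type and 2560 to 3548 on transgenic arrays. Under array medians 5 white adipocyte and 2 Schwann cell markers rose, and 0 of either list fell. Of the 12 muscle fibre markers 1 rose and 7 fell, against 1 and 0 under array medians and 1 and 4 with the Cy5 channel alone. Endothelial (12 measured), smooth muscle (12), brown adipocyte (7), macrophage (10) and satellite cell (6) markers had 0 to 1 higher and 1 to 2 lower. The part of these cells in the collagen differences was not tested.

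The 15 collagen genes without a kept probe comprised 12 with no probe well above background on any array: Col4a3, Col6a4, Col6a5, Col8a1, Col9a3, Col10a1, Col13a1, Col17a1, Col19a1, Col25a1, Col27a1 and Col28a1. Col11a1, the fibrillar partner of Col11a2, was well above background on 5 of 7 transgenic and 0 of 6 wild type arrays, Col23a1 on at most 2 and 0, and the cartilage gene Col9a1 on 0 and 2. These counts are limited by signal over background and do not show absence of the RNA.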

How the data were processed

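Gastrocnemius RNA of 13 mice was measured on Agilent 8x60K arrays, 1 per mouse. Per the file headers, the deposited scanner files hold spot and local background intensity on a linear scale and Agilent's log10 ratio, written by Feature Extraction 10.5.1.1 with probe positions in mm9. The authors' deposited value table (25583 rows) was taken as log2 intensity of the Cy5 channel; its scale and centring were inferred, its normalization is not given in the sources used here, and it was used as an alternative.

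Mean signals were corrected by normexp with an offset of 50 and normalized by loess within arrays in limma 3.58.1 (R 4.3.3). Control and outlier spots were left out, and spots of a probe were averaged. A probe was kept where Feature Extraction called its Cy5 signal well above background on 6 or more arrays, and the brightest stood for its gene name. Groups were compared with lmFit and eBayes, two-sided and without covariates, and p-values were adjusted by Benjamini-Hochberg over 17257 genes. Single-probe values given as over all probes were adjusted over the 22716 kept probes. The code was tested on simulated data. Replicate numbers of the labels did not pair the arrays. Precision is limited by the number of arrays. Exon or UTR positions of the probes were not analysed here.

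The collagen members and all lists were chosen with earlier results of these data known. Every measured collagen is given. Values by array are given for those past the threshold and for 11 genes named for their role, namely both type I chains, Col3a1, Col5a1, Col4a1, Col4a2, Col15a1, Col18a1 and 3 type VI chains. Up to 3 risen and 3 fallen genes of a pathway list are named, and 1 such gene is not reported here. Alternatives were other scalings, background corrections, filters, probe rules, slide and replicate blocks, a size threshold and arrays left out.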

Additional observations from a re-analysis of the deposited data

Results flagged for a closer look

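In 56 groups (28 collagen genes in 2 groups of mice), 5 held an array that stood apart from the others of its group; chance alone flags about 1 group in 20. Col15a1 read 0.39 on transgenic 3, against -0.26 to -0.02 on the other transgenic arrays. Col5a1 read 0.25 on transgenic 7, against -0.20 to -0.12. Col6a1 read -0.71 on transgenic 6, against -0.24 to 0.11. Col24a1 read -0.49 on wild type 1, against -0.09 to 0.09 on the other wild type arrays, and Col2a1 read -0.010 on wild type 6, against -0.32 to -0.21.

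Some dim collagen probes outside the comparison were well above background on transgenic arrays and on 0 of 6 wild type arrays. The probe of Col11a1 was so on 5 transgenic arrays, a second probe of Col4a6 on 3, and the probes of Col23a1 on 2 and 1. Of the 32965 probes not kept, 2459 were above background on transgenic arrays only and 1274 on wild type arrays only. The pattern of Col11a1, 5 transgenic and 0 wild type arrays, was met by 79 probes, and 5 wild type and 0 transgenic arrays by 14. With 7 transgenic and 6 wild type arrays, these counts do not compare like with like. The share of all probes above background was also highest on transgenic 3 (43.2%) and lowest on wild type 1 (37.1%). Without the filter on dim probes Col11a1 differed by 0.27, with a limma adjusted p of 0.00841. Since Col11a1 was picked out by its signal on the transgenic arrays, this p is no independent support.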

How the results depend on the processing

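Of the 7 higher and 1 lower collagen genes, 1 was higher and 1 lower with a difference of at least 0.5 required besides. Array medians without loess gave 4 higher and 0 lower, and a basement membrane median of 0.19, beside a shift of 0.14 of all genes. Agilent's own ratio gave 9 higher (Col8a2 and Col9a2 added) and 2 lower (Col4a4 added) of 28, against 20.0% and 18.3% of all genes. No filter on dim probes gave 8 higher (Col11a1 added) and 2 lower (Col9a1 added) of 43, against 7.97% and 7.76% of all genes. A filter on all 13 arrays gave 5 higher, without Col2a1 and Col4a5, and 1 lower of 21, against 18.4% and 18.3%. With 1 array left out, 7 to 8 genes were higher and 1 to 2 lower, while 29.8% to 33.1% of all genes passed. Col22a1 was added without wild type 1, and Col8a2 without wild type 6. Without wild type 2, Col9a2 was added and Col16a1 lost. Within slides 1 to 4 the fibrillar median was 0.05, 0.41, 0.37 and 0.08, the basement membrane median -0.08, 0.34, -0.02 and -0.09, and that of the others 0.25, 0.21, 0.11 and 0.04. Col1a1 against Col3a1 gave 0.40 (adjusted p 0.0796) with Agilent's ratio, 0.57 (0.0932) with Cy5 alone and 0.49 (0.0505) without wild type 4, all by the exact permutation test. Col4a5 against Col4a6 gave 0.23 (0.352) with Cy5 alone and 0.41 (0.0505) without wild type 4. The cause of these changes was not tested. With the replicate number as a block, 7 genes were higher and 1 lower, against 15.8% and 15.3% of all genes, and no call changed. The numbers do not pair the arrays: deviations of same-numbered arrays correlated above 0.1 in 3 of 6 pairs, and 0 wild type arrays correlated best with their own number. Slide as a fixed block added Col24a1 and Col8a2, and as a random block Col9a2 too. Values that passed in neither setting changed sign 27 times over the named genes, which was not counted as a reversal. Scan time followed the slide, so it was not run on its own. Dim genes such as Col2a1, Col4a5 and Col15a1 are limited by signal over background.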
